A study of Mus musculus with 6 samples.

Results

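Interferon-stimulated and antigen presentation genes were followed as a named set of 35 genes in mouse embryonic fibroblasts (MEFs), which are connective-tissue cells taken from embryos and grown in a dish. The members were listed by name and matched to the 51826 genes of each table by Ensembl number, and all 35 were found. Of them 34 passed the filter on low counts and were tested among 14652 genes, and Mx1 did not pass. The cells were on a C57BL/6 background, untreated as far as the labels say, at passage 2 to 5, in 3 wild-type cultures (Lztr1 +/+, numbered 10, 12 and 16) and 3 heterozygous cultures (Lztr1 +/-, numbered 11, 15 and 18). The protein LZTR1 brings RAS-family GTPases to a CUL3 ubiquitin ligase. How its mutant allele was built is not stated in the labels. The comparison asks whether the basal level of these genes differs between the genotypes.

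Lztr1 itself matched the labels, with values of 93.9, 94.1 and 83.2 for wild-type 10, 12 and 16 and 45.9, 45.1 and 43.8 for heterozygous 11, 15 and 18. These are CPM, the counts of a gene as a rate per 1e6 counts, scaled for library size and composition. Libraries held 11025286 to 21885101 expected counts, and heterozygous culture 11 was the deepest. Transcripts of Y-linked genes were present in cultures 12, 15 and 18 and near 0 in cultures 10, 11 and 16, so sex is partly confounded with genotype. The labels do not say whether cultures came from separate embryos, so the tests measure the spread between these cultures. The 13 fibroblast markers examined were detected in every culture, from 10795 to 13025 TPM in sum (TPM is also a rate per 1e6, of transcripts, and is scaled for gene length). Markers of macrophages and blood were also detected in every culture, and their values are given beside the results below.

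Type I interferons signal through a receptor pair and the kinases JAK1 and TYK2 to transcription factors, STAT2 and IRF9 among them, which bind the interferon-stimulated response element (ISRE) in the promoters of their targets. Interferon gamma acts on promoters with the gamma-activated site (GAS) and induces IRF1, which also binds ISRE-like sequences. The targets include sensors of viral RNA, proteins that block viral replication, and the machinery that cuts proteins into peptides and displays them on class I molecules of the major histocompatibility complex. In fibroblasts a low tonic level of the same signalling keeps many of these genes expressed without infection.

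Promoters of 4 members with a wide range over the cultures are shown because each holds the ISRE core, searched on both strands as GAAA, any 2 bases, and GAAA again. They are RefSeq sequences of GRCm38.p6, from 250 bases before the annotated start to 50 after it, 5′ to 3′ along the gene, with the core in capitals.
Ifit1, chr19:34640639-34640938, plus strand: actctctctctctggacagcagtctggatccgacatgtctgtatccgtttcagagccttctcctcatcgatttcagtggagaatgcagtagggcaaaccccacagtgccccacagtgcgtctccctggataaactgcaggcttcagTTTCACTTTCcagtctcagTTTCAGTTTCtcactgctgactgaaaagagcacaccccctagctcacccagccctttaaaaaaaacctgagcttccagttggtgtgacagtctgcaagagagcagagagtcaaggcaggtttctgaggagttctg
Ifit3, chr19:34583279-34583578, plus strand: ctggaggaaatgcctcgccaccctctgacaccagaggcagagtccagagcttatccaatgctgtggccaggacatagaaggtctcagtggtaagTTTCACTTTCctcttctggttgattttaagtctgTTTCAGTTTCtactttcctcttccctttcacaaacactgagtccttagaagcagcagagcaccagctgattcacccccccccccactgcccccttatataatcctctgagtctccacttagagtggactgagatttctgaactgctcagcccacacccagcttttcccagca
Oas1a, chr5:120907476-120907775, minus strand: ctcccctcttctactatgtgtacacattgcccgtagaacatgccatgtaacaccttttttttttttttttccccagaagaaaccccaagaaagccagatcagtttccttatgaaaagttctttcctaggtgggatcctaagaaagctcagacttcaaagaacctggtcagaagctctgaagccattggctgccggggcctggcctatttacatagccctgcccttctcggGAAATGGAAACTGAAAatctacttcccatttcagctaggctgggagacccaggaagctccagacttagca
Rsad2, chr12:26456403-26456702, minus strand: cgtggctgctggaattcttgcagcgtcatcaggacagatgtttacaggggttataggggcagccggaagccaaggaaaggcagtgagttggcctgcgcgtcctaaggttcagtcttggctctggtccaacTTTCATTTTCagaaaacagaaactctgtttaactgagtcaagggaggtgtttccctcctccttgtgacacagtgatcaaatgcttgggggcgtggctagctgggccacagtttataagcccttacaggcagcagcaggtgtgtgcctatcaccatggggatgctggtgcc
In Ifit1 and Ifit3 there are 2 matches each on the reverse strand, so that the printed letters are the reverse complement of the core. They begin 104 and 85 bases before the start in Ifit1 and 156 and 122 bases before it in Ifit3. The 2 matches of Oas1a overlap each other and begin 20 and 14 bases before the start. Rsad2 has 1 match, also on the reverse strand, 120 bases before the start.

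The promoter table held 28 of the 35 members, with 33 promoters between them. The 7 it did not hold were Oas2, Mx1, Mx2, Usp18, Parp9, Rtp4 and Tap2. The ISRE core was found in 12 of these members (Ifih1, Stat2, Ifit1, Ifit3, Oas1a, Rsad2, Bst2, Gbp2, Gbp3, Isg15, Cxcl10 and B2m), or 12 of 33 promoters, while 3.44% of all 32851 promoters of the same length held it. The GAS core, searched as TTCNNNGAA, which reads the same on both strands, was found in 6 members (Irf1, Ifit2, Oas1a, Bst2, Ifi35 and Psmb8), beside 8.30% of all promoters. Oas1a and Bst2 held both. Isg15 had the most ISRE matches, 3, which overlap between 78 and 66 bases before the start. A match is a description of the letters in this window and not evidence of binding. The printed promoters were picked for holding the core. Of the 8 members of widest range, Irf7 held no ISRE match, and Oas2, Mx2 and Usp18 were not in the promoter table. B2m and Stat2 held the core at narrow ranges (0.34 and 0.40 in log2 CPM). Whether range goes with the ISRE was not tested.

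**Figure D1:**
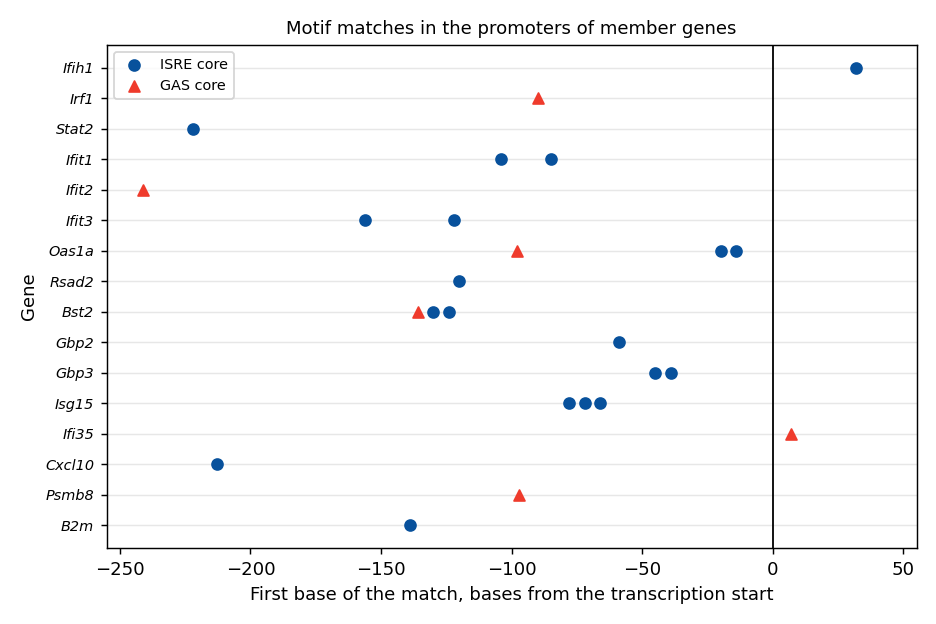
Position of each motif match (circles, ISRE core; triangles, GAS core) in the promoters of 16 member genes, with the first base of the match in bases from the transcription start on the horizontal axis. Most ISRE matches lie before the start, from 222 bases before it in Stat2 to 14 before it in Oas1a, and that of Ifih1 lies 32 bases after it.

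Basal levels differed widely among the members. B2m, which encodes the light chain of class I molecules, had the highest mean over the 6 cultures at 659 TPM, followed by Bst2, which tethers budding virus particles to the cell surface, at 185 TPM. Isg15, a ubiquitin-like modifier, averaged 70.2 TPM, and the class I heavy chain genes H2-D1 and H2-K1 averaged 55.1 and 36.5 TPM. At the other end were Mx1 at 0.288 TPM, Rsad2 at 0.648 TPM and Oas2 at 0.885 TPM. The other members averaged between 1.45 TPM (Mx2) and 32.3 TPM (Tapbp). Most inbred laboratory mouse strains, C57BL/6 among them, carry a defective Mx1. It was counted at 4 to 10 reads per library and is given no further comparison.

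**Figure D2:**
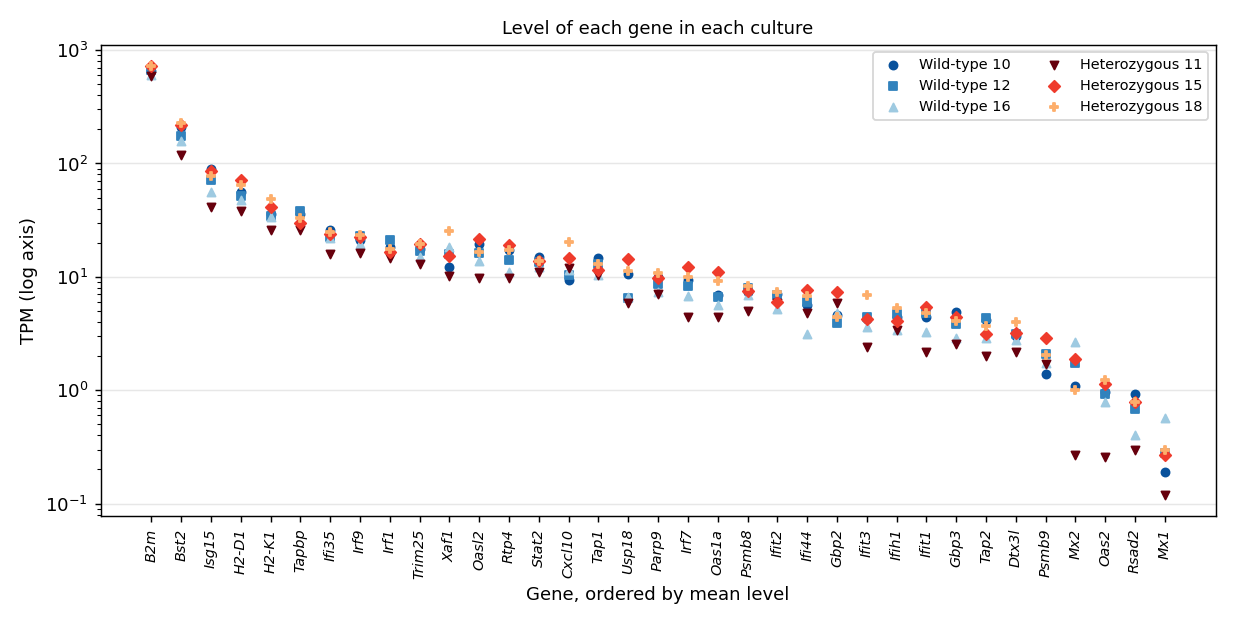
Level of each of the 35 genes in each culture, in TPM on a log axis, with genes ordered by mean level. Blue symbols are wild-type and red to orange symbols heterozygous cultures. Levels run from B2m at 659 TPM to Mx1 at 0.288 TPM, and the dark red triangles of heterozygous culture 11 lie lowest for most genes.

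No member passed the test between genotypes over all genes. By edgeR's quasi-likelihood test 0 of 34 members had an adjusted p under 0.05, beside 0.00683% of all tested genes (Lztr1 alone), and the lowest adjusted p of a member was 0.361. At an unadjusted p under 0.05 there were 2 members, Cxcl10 and Tapbp, beside 12.2% of all genes, Cxcl10 being higher (5.56% of all genes) and Tapbp lower (6.65%). DESeq2 called 0 members (0.764% of all genes), and limma on TPM also called 0. DESeq2 gave Cxcl10 no adjusted p (unadjusted p = 0.023 by DESeq2), so that gene could not be called there. Genes without an adjusted p count as not called in both figures of DESeq2, and how many other members had none was not counted. The median log2 difference, heterozygous minus wild-type, was 0.06 over the members and 0.00 over all tested genes (-0.00178), with 24 members higher and 10 lower (49.6% of all genes were higher). With Y-linked expression as a term in the fit the direction turned, to 8 higher and 26 lower with a median of -0.09, and with the run of culture numbers as a term to 11 higher and 23 lower with a median of -0.06. The groups did not overlap for 1 member that was higher, Cxcl10 (7.75% of all genes), and for 2 that were lower, Irf1 and Tapbp (9.97% of all genes). In TPM the groups of Irf1 and Tapbp overlapped, with heterozygous 18 above wild-type 16 (17.55 and 17.52 TPM for Irf1, 33.4 and 30.6 TPM for Tapbp).

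The members varied mainly among the heterozygous cultures. Heterozygous culture 11 had the lowest CPM of the 6 in 28 of 34 members, where it was lowest in 12.3% of all tested genes. The exceptions were Stat2, Ifit2, Gbp2, Ifi44, Cxcl10 and Psmb9. Heterozygous cultures 15 and 18 had the highest value in 16 and 11 members, beside 15.8% and 16.6% of all genes, or in 27 together, beside 32.4%. In CPM, 19 members had culture 11 below and cultures 15 and 18 both above all 3 wild-type cultures. This order was seen in 1.98% of all genes. In TPM it did not hold for Ifih1, Irf9, Ifit3, Mx2, Rsad2, Parp9 and Psmb8 among these 19. It was not counted over all genes in TPM. These counts describe the pattern and were not tested against chance.

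The mean deviation of the 34 members from the mean of all cultures, in log2 CPM, was 0.06, -0.03 and -0.10 in wild-type cultures 10, 12 and 16. It was -0.48 in heterozygous culture 11 and 0.29 and 0.25 in cultures 15 and 18. The heterozygous cultures thus lay on both sides of the wild-type cultures, with a mean of 0.02 ± 0.44 against -0.02 ± 0.08 in wild-type (SD, n = 3 each). The gap between the highest and lowest heterozygous culture had a median of 0.76 over the members, against 0.28 among wild-type cultures, and was the wider one in 30 of 34 members. Over all tested genes the corresponding medians were 0.21 and 0.26, and the heterozygous gap was the wider one in 40.5% of genes.

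**Figure D3:**
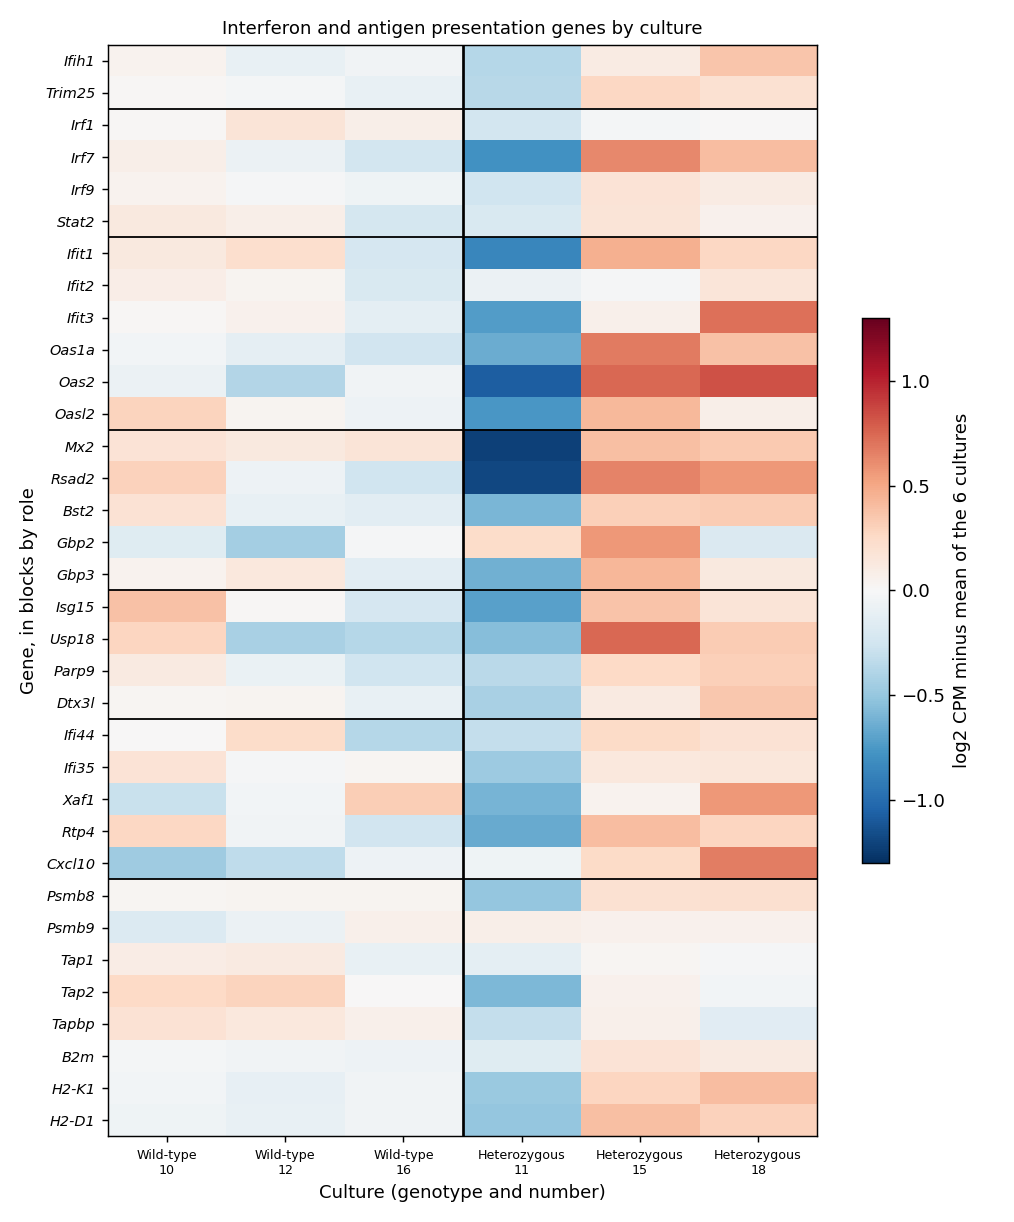
Deviation of each tested member (34 genes, in blocks by role) from its mean over the 6 cultures, in log2 CPM, for each culture. Blue is below and red above the mean. The column of heterozygous culture 11 is mostly blue (mean -0.48) and those of heterozygous cultures 15 and 18 mostly red (means 0.29 and 0.25).

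Among the sensors, Ifih1 encodes a cytosolic sensor of double-stranded RNA and Trim25 a ubiquitin ligase that activates the related sensor RIG-I. Trim25 measured 55.7, 54.4 and 51.7 CPM for wild-type 10, 12 and 16, and 42.9, 66.4 and 63.5 CPM in heterozygous 11, 15 and 18. Ifih1 measured 8.84 to 9.80 CPM in wild-type cultures, 7.28 CPM in heterozygous culture 11 and 10.2 and 12.2 CPM in 15 and 18. For both genes culture 11 was below and the other heterozygous cultures above every wild-type culture in CPM. In TPM Trim25 kept this order and Ifih1 did not. There Ifih1 was at 4.47, 4.75 and 3.38 in wild-type 10, 12 and 16 and at 3.39, 4.08 and 5.34 in heterozygous 11, 15 and 18. The log2 differences between genotypes were 0.09 (SE 0.15) for Trim25 and 0.08 (SE 0.19) for Ifih1.

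The transcription factor genes were uneven in their range. Irf7, the factor that amplifies type I interferon production, was measured at 7.89, 7.07 and 6.32 CPM in the wild-type group and at 4.29, 11.6 and 9.96 CPM in heterozygous 11, 15 and 18. Its highest culture stood 2.71-fold above its lowest, with culture 11 lowest and 15 highest. Irf9 and Stat2, partners in the ISRE-binding complex, had narrower ranges, from 23.5 to 31.8 CPM and from 21.7 to 28.7 CPM. Irf1, the factor induced by interferon gamma, was the only one of the 4 with separate groups, at 19.2, 21.4 and 20.05 CPM in wild-type and 16.2, 18.8 and 19.2 CPM in heterozygous cultures. The difference of Irf1 was -0.17 (SE 0.10) (adjusted p = 0.518 by edgeR), and its groups were apart by a margin that does not show at this rounding.

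The RNA-binding effectors had some of the widest ranges. Oas2, an enzyme that makes oligoadenylates to activate RNase L, was at 1.34, 1.06 and 1.37 CPM in the wild-type group and at 0.599, 2.48 and 2.63 CPM in heterozygous 11, 15 and 18. Oas1a, of the same family, was at 7.05, 6.63 and 6.04 CPM against 4.56, 11.6 and 9.42 CPM. In both genes the wild-type cultures lay between the low and the high heterozygous cultures, and the highest culture was 4.39-fold and 2.54-fold above the lowest. Oas2 rests on 12 to 35 reads per library, so its values carry a wide counting error. Oasl2, an OAS-like protein, ranged from 11.7 CPM in heterozygous culture 11 to 26.8 CPM in 15.

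Among the IFIT genes, whose products bind viral RNA, Ifit1 was at 6.56, 6.98 and 5.13 CPM in the wild-type group and at 3.27, 8.35 and 7.25 CPM in heterozygous 11, 15 and 18. Ifit3 was at 3.95, 4.07 and 3.57 CPM against 2.30, 4.10 and 6.52 CPM. Ifit2 ranged only from 12.1 to 15.5 CPM, with wild-type culture 16 lowest, so the neighbouring members of this family on chromosome 19 did not share the pattern to the same degree. Between the genotypes Ifit1 differed by -0.01 (SE 0.33), Ifit2 by 0.04 (SE 0.12) and Ifit3 by 0.12 (SE 0.35). Reads of Ifit3 and Oas1a are shared with close copies, since 61.8% of the 31-base words of Ifit3 transcripts occur in other genes (Ifit3b) and 68.8% of those of Oas1a (chiefly Oas1g), so their levels are uncertain.

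Of the other antiviral effectors, Rsad2, the radical enzyme viperin, was at 1.41, 1.06 and 0.915 CPM in the wild-type group and at 0.415, 1.84 and 1.72 CPM in heterozygous 11, 15 and 18. Mx2, of the dynamin-like GTPase family and annotated as a polymorphic pseudogene, was at 1.20, 1.15 and 1.19 CPM against 0.369, 1.42 and 1.36 CPM. Each of these rests on no more than 26 reads in any library, and culture 11 had 9 reads of Rsad2 and 8 of Mx2 in spite of its depth. On the TPM scale, which also divides by the estimated transcript length, wild-type culture 16 was the highest for Mx2 and wild-type culture 10 for Rsad2.

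Bst2 was measured far more precisely, on 648 to 1140 reads. It stood at 73.9, 60.6 and 59.3 CPM in the wild-type group and at 43.2, 80.7 and 81.8 CPM in heterozygous 11, 15 and 18, so that the low and high heterozygous cultures were again on either side of the wild-type range. Gbp2 and Gbp3 encode guanylate-binding proteins that attack intracellular pathogens. Gbp3 was lowest in culture 11 (3.23 CPM) and highest in 15 (6.86 CPM), while culture 18, at 5.53 CPM, was within the wild-type range of 4.58 to 5.57 CPM. Gbp2 was not lowest in culture 11, at 6.41, 5.22 and 7.05 CPM in wild-type and 8.48, 10.6 and 6.25 CPM in heterozygous cultures, with a difference of 0.45 (SE 0.22) and an adjusted p of 0.445 by edgeR.

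Isg15 is conjugated to proteins like ubiquitin, and Usp18 removes it and restrains the interferon receptor. Isg15 was at 30.0, 23.2 and 19.7 CPM in the wild-type group and at 14.0, 29.8 and 25.8 CPM in heterozygous 11, 15 and 18. Usp18 was at 9.87, 6.01 and 6.23 CPM against 5.48, 13.7 and 10.2 CPM. Wild-type culture 10 was the highest wild-type culture for Usp18 and the highest of all 6 for Isg15, close to heterozygous culture 15 and above 18. Parp9 and Dtx3l, partners in ADP-ribosylation and ubiquitylation, lie head to head on chromosome 16 with overlapping exons and ranged from 11.6 to 18.4 CPM and from 6.82 to 11.8 CPM, lowest in culture 11 and highest in 18.

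Of the remaining interferon-stimulated genes, Cxcl10, a chemokine that attracts T cells, had the largest difference between genotypes. It was at 5.00, 5.48 and 6.59 CPM in the wild-type group and at 6.64, 8.28 and 11.1 CPM in heterozygous 11, 15 and 18. The groups did not overlap, though wild-type culture 16 and heterozygous culture 11 were nearly level, and the difference was 0.59 (SE 0.22), for which edgeR gave an adjusted p of 0.361. Xaf1, a pro-apoptotic protein, ranged from 3.96 to 9.06 CPM, Rtp4, a receptor-transporting protein, from 5.16 to 10.9 CPM and Ifi35 from 11.01 to 17.3 CPM, each lowest in culture 11. Ifi44 ranged from 5.49 to 8.56 CPM and was lowest in wild-type culture 16.

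Antigen presentation genes, most of them in the major histocompatibility complex on chromosome 17, showed the same order for the molecules that present peptide. H2-D1 (chr17:35262730-35267499 in mm10, plus strand, protein coding) was at 53.6, 52.2 and 54.0 CPM in the wild-type group and at 39.2, 73.1 and 68.3 CPM in heterozygous 11, 15 and 18. H2-K1 (chr17:33996017-34000347, minus strand) was at 29.3, 27.9 and 29.1 CPM against 21.6, 36.7 and 39.8 CPM. The wild-type cultures were close together, with an SD of 0.985 CPM for H2-D1 and 0.749 CPM for H2-K1, where the heterozygous SD was 18.3 and 9.75 CPM (n = 3 each). B2m (chromosome 2) had the order in smaller measure, at 259, 256 and 253 CPM against 237, 299 and 287 CPM. Transcripts of the heavy chains share 26.9% (H2-D1) and 22.8% (H2-K1) of their 31-base words with other genes, including each other, and the effect of shared reads on their common order was not tested.

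The peptide loading genes behaved otherwise. Tapbp, encoding tapasin, which holds class I molecules at the peptide transporter, was at 48.4, 46.7 and 44.3 CPM in the wild-type group and at 34.1, 44.3 and 38.2 CPM in heterozygous cultures. Its groups did not overlap, by a margin under the rounding between wild-type 16 and heterozygous 15, and the difference was -0.26 (SE 0.10), for which edgeR gave an adjusted p of 0.368. Tap2, a subunit of that transporter, was at 6.13, 6.28 and 5.13 CPM against 3.36, 5.31 and 4.98 CPM, a difference of -0.38 (SE 0.21). Tap1, the partner subunit, ranged only from 17.8 to 21.2 CPM. Neither culture 15 nor culture 18 exceeded the highest wild-type culture in any of these 3 genes, and culture 11 was the lowest in all 3. Of the 31-base words of Tapbp transcripts 26.9% occur in other genes.

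Psmb8 and Psmb9 are inducible catalytic subunits that replace constitutive ones in the immunoproteasome. In TPM, Psmb8 amounted to 2.55% ± 0.221 of its constitutive counterpart Psmb5 in wild-type and to 1.73%, 2.70% and 3.17% in heterozygous cultures 11, 15 and 18. Psmb9 amounted to 0.428% ± 0.0949 of Psmb6 in wild-type and 0.573% ± 0.177 in heterozygous cultures (SD, n = 3). Psmb10, the inducible counterpart of Psmb7, amounted to 15.5% ± 1.65 of it in wild-type and 15.6% ± 1.81 in heterozygous cultures. The constitutive subunit was the more abundant of each pair in every culture. In CPM, Psmb9 was the member with the least spread among heterozygous cultures, at 1.29, 1.27 and 1.27 CPM, on 13.3 to 28.5 expected reads. In TPM it was less even, at 1.72, 2.89 and 2.03 in heterozygous 11, 15 and 18.

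Leaving out heterozygous culture 11 changed the picture of the genotype difference but made no call. The median of the members rose from 0.06 to 0.27 and 30 of 34 members were then higher, beside 48.8% of all genes. By edgeR 0 members had an adjusted p under 0.05 (0.0% of all genes), with a lowest value of 0.235 for H2-D1. At an unadjusted p under 0.05 there were 11 members, all higher, beside 12.7% of genes in either direction, 5.58% that were higher and 7.12% that were lower. The groups then did not overlap for 20 members that were higher, beside 14.7% of all genes, and for 2 that were lower, beside 16.9%. The culture was left out because it departs from its group in these same genes, so the shift is a description.

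Leaving out either of the other heterozygous cultures moved the median the other way, to -0.04 without 15 and -0.05 without 18, with 13 of 34 members higher in each. Without wild-type culture 16 the median was 0.00 (0.00313), with 17 members higher (49.9% of all genes), and edgeR called 0 members where it called 5.93% of all genes. The sign of the list's difference thus changed with the heterozygous cultures included, as it did with the Y-linked or number run term.

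**Figure D4:**
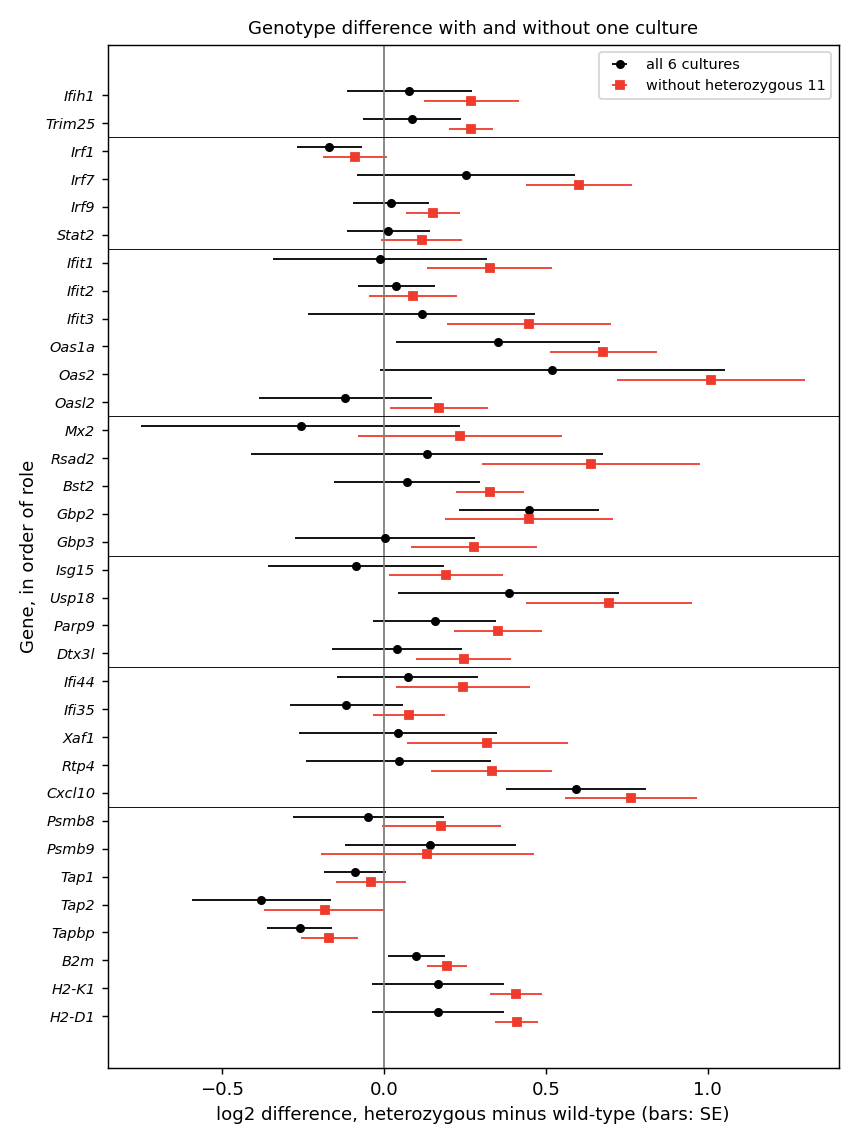
Log2 difference between genotypes (heterozygous minus wild-type) for each tested member, with all 6 cultures (black circles) and without heterozygous culture 11 (red squares), bars showing the SE of the fit. The median moves from 0.06 to 0.27, and 24 and 30 of the 34 genes lie above 0.

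The difference between genotypes had opposite signs within sets of the cultures. Within cultures 10 to 12 (2 wild-type, 1 heterozygous) the median of the members was -0.47, with 31 of 34 lower, and within cultures 15 to 18 (1 wild-type, 2 heterozygous) it was 0.34, with 30 higher. By the numbers the repository gave the samples, cultures 10, 12, 15 and 18 were registered together, with a median of 0.21. By the same numbers cultures 11 and 16 were registered later, with -0.40. The labels do not say whether the culture numbers or these blocks mark litters or batches. Among cultures without Y-linked transcripts (wild-type 10 and 16, heterozygous 11) the median was -0.48, and among those with them (wild-type 12, heterozygous 15 and 18) it was 0.25. All these sets place culture 11 against cultures 15 and 18, so number run, time of registration, sex and a peculiarity of culture 11 cannot be told apart. Cxcl10 was higher in heterozygous cultures in each of these 6 sets, by 0.01 to 0.85, and Tapbp was lower in each, with differences of -0.48 to -0.11, as the separation of their groups requires.

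The change of the genotype difference between sets was also fitted as an interaction term in edgeR, added because of the departure of culture 11. Heterozygous 11 and wild-type 16 are each alone in their arm between runs, and heterozygous 11 and wild-type 12 between the Y-linked classes. The spread therefore comes from the other cultures, and the counts restate the departure of culture 11 and are no independent evidence that the sets differ. Between the runs of culture numbers (15 to 18 against 10 to 12) 1 of 34 members was called, H2-D1, beside 0.328% of all genes, with 25 at an unadjusted p under 0.05, beside 13.4%. The term was above 0 in 32 members, beside 50.5% of all genes. Between cultures with and without Y-linked transcripts 0 members were called (0.0% of all genes), with 15 at an unadjusted p under 0.05, beside 3.91%, and 33 above 0, beside 49.2%.

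The first registered cultures alone (wild-type 10 and 12, heterozygous 15 and 18), a comparison added after the data were examined, gave 3 members called by edgeR, all higher, beside 9.83% of all genes. They were H2-D1 at 0.42 (adjusted p = 0.0121), H2-K1 at 0.41 (adjusted p = 0.0247) and Cxcl10 at 0.88 (adjusted p = 0.0419). The groups did not overlap for 22 members that were higher, beside 28.4% of all genes, and for 4 that were lower, beside 29.6%. The groups there coincide with the runs of culture numbers, and 3 of 34 is near the share of all genes.

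Other genes of the pathway were compared from lists of the same kind. Of 10 interferon genes, Ifnb1, Ifng and 6 more had no read in any library, and Ifna4 and Ifnk had at most 1 read in a library. None of the 14 tested receptor and JAK-STAT genes passed edgeR's test, with 2 at an unadjusted p under 0.05 (12.2% of all genes), namely Jak1, the receptor kinase (0.21, SE 0.068), and Socs1, a feedback inhibitor of it (-0.52, SE 0.19). Socs3, a related inhibitor, differed by -0.32 (SE 0.15). Culture 11 was the lowest of the 6 in 2 of these 14 genes, and their mean deviation ran only from -0.08 to 0.06 over the cultures, so that the receptors and kinases did not show the spread of the members.

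The other interferon-stimulated genes did. Of 47 tested genes, 29 were lowest in culture 11 (12.3% of all genes), and their mean deviation was -0.39 there against -0.08 to 0.09 in wild-type cultures and 0.25 and 0.12 in heterozygous cultures 15 and 18. Between genotypes 24 were higher and 23 lower, 0 were called by edgeR and 2 had an unadjusted p under 0.05 (12.2% of all genes), namely the membrane protein gene Ifitm2 (-0.19, SE 0.057) and Ifi27 (-0.35, SE 0.14). Parp11 differed by -0.25 (SE 0.13). The median without culture 11 was 0.18, from 0.00 (0.00262) with it.

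Nucleic acid sensing genes had culture 11 lowest in 11 of 22, with a mean deviation of -0.23 there. Again 0 were called, and 2 had an unadjusted p under 0.05 (12.2% of all genes), the receptor gene Tlr4 (0.57, SE 0.17) and the nucleotide hydrolase gene Samhd1 (0.19, SE 0.074), while Irf3, a factor activated by sensing, differed by -0.17 (SE 0.079). Class I partners had culture 11 lowest in 5 of 15 and 0 called, with Canx, a chaperone, at 0.11 (SE 0.068), Psme1, a proteasome activator, at -0.10 (SE 0.063) and Erap1, which trims peptides, at 0.15 (SE 0.11). Constitutive proteasome subunits had it lowest in 0 of 3 and 0 called, with Psmb7 at 0.13 (SE 0.059), Psmb5 at -0.06 (SE 0.071) and Psmb6 at -0.05 (SE 0.061).

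Class II presentation genes, normally restricted to professional antigen-presenting cells, had at most 63 reads in any library. Of 8 listed 3 were tested and 0 called, H2-DMa at -0.38 (SE 0.20), Cd74 at 0.39 (SE 0.38) and H2-Eb1 at -0.32 (SE 0.46). Their sum was 11.4 to 17.6 TPM in wild-type and 12.3 to 17.5 TPM in heterozygous cultures.

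Macrophage and blood markers moved with the members. All 16 listed markers, such as Ptprc, Csf1r, Tyrobp and C1qa, were detected in every culture, none was at 0, and 13 were lowest in culture 11. Their mean deviation was -0.12, -0.23 and 0.20 in wild-type cultures 10, 12 and 16 and -0.51, 0.34 and 0.33 in heterozygous cultures 11, 15 and 18. In sum they stood at 454 to 582 TPM in wild-type cultures and at 362, 636 and 635 TPM in heterozygous cultures 11, 15 and 18. The order of the heterozygous cultures was that of the members, while wild-type culture 16 had the highest markers and the lowest members of the wild-type cultures. In bulk RNA fewer cells of a type and less RNA per cell cannot be told apart, and the part of macrophages in the level of the members was not tested.

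Culture 11 was also the lowest of the 6 in the mean of the endothelial, epithelial and fibroblast markers, though not in most of their genes. It was lowest in 2 of 8 endothelial, 3 of 9 epithelial and 4 of 13 fibroblast markers. Wild-type cultures 12, 10 and 16 were lowest in 3, 5 and 5 of these, in the same order. Endothelial markers had a mean deviation of -0.32 in culture 11, 0.56 in 15 and -0.07 in 18. Epithelial markers were at -0.73 in culture 11 and 0.23 and 0.55 in 15 and 18, and at -0.66 in wild-type culture 10. Fibroblast markers were at -0.16 in culture 11 and between -0.14 and 0.22 in the others. Erythroid markers were at -0.13 in culture 11 and 0.63 and 0.72 in 15 and 18, and lowest in wild-type culture 12 (-1.17). Dendritic and lymphoid markers had at most 6 reads in any library, with Cd3e at 0 in all. The part of these cells in the result was not tested.

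**Figure D5:**
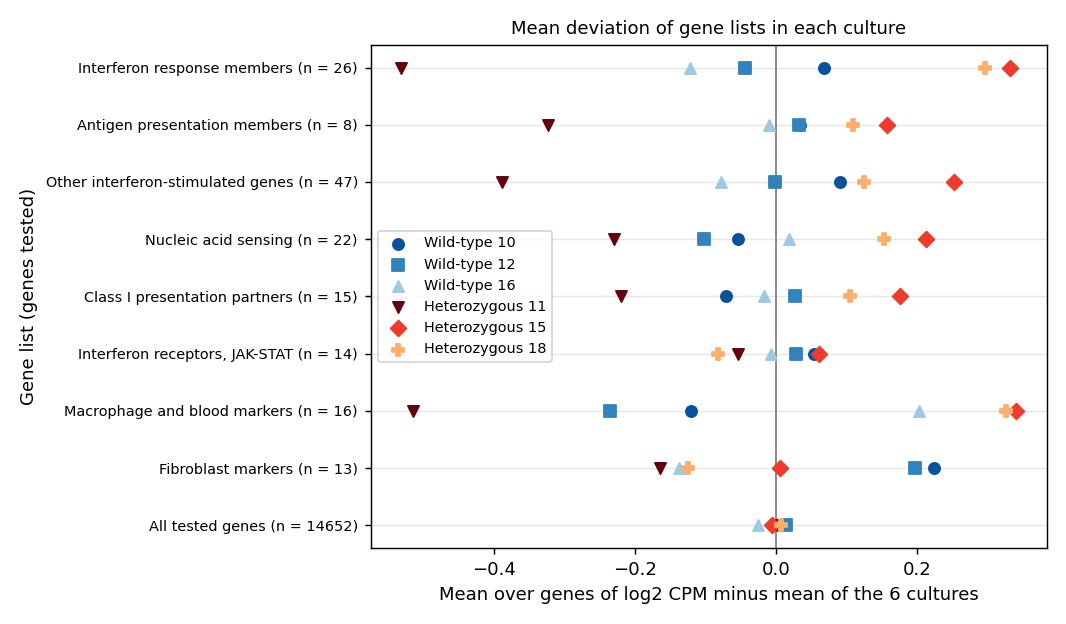
Mean over the genes of a list of log2 CPM minus the mean of the 6 cultures, for each culture, with the number of tested genes beside each list. Heterozygous culture 11 is lowest for the interferon response members (-0.53), the antigen presentation members (-0.32) and the macrophage and blood markers (-0.51). It is also lowest for nucleic acid sensing, other interferon-stimulated genes, class I partners and the fibroblast markers. Receptors and kinases stay between -0.08 and 0.06.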

How the data were processed

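RNA sequencing libraries of 6 cultures were made from total RNA with an Illumina TruSeq kit, per the labels' protocols. For each culture the authors deposited a file of RSEM gene estimates, per the file headers. The submitters' processing notes list RSEM 1.3.1, DESeq2 and mm10. Aligner, annotation and strand setting: not given in the sources used here. In the authors' expected counts a read matching more than 1 gene is divided among them, which left 7.53% to 8.80% of a library's values fractional. Deposited TPM values are scaled for length and library size. The deposited FPKM values were examined and used in no test.

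Symbols and positions came from GENCODE M21 (the same assembly as mm10) by Ensembl number, which named 51633 of 51826 genes. In the nucleic acid sensing list 3 names were other names of genes already in it, and Ahsp of the erythroid list had no match. Counts were rounded, filtered with filterByExpr (14652 genes left), scaled with TMM and compared between 3 wild-type and 3 heterozygous libraries with edgeR 4.0.16 (quasi-likelihood F test, no covariates) in R 4.3.3, with Benjamini-Hochberg adjustment over all genes and a threshold of 0.05. DESeq2 1.42.0 and limma 3.58.1 on log2(TPM + 0.1) and log2(TPM + 1) were alternatives. Deviations are in log2 CPM with a prior count of 2. A floor of 3 counts equals 0.137 to 0.272 CPM and covers counting error only. Both count tests were run on simulated data with the same spread between cultures for every gene and no departing culture. That check therefore does not cover the spread seen in these members. Shared sequence was counted as 31-base words of GENCODE transcripts found in another gene. Interactions of genotype with number run and with Y-linked expression, and the fit of the first registered cultures alone, were added after the data were examined.

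The members and lists were chosen with earlier results of these data known. All members are named. Values per culture are given in full at least for the 8 members of smallest p, the 8 of widest range over the cultures and the 5 of highest TPM. Of each pathway list the 3 genes of smallest p are given. Promoters are those of up to 4 wide-range members with the most ISRE matches.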

Additional observations from a re-analysis of the deposited data

Results flagged for a closer look

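The genotype difference of the interferon and antigen presentation genes differed between sets of cultures in opposite directions, with a median below 0 in the set that holds heterozygous culture 11 and above 0 in the set that holds 15 and 18. It was fitted as edgeR's interaction term over all genes, added because of the departure of culture 11. Heterozygous 11 and wild-type 16 are each alone in their arm, so the spread comes from the other cultures and the values restate that departure. The difference within cultures 15 to 18 exceeded that within cultures 10 to 12 by a median of 0.81 (log2) over 34 members, 32 of them above 0. Of the members 1 passed, H2-D1 (0.82, adjusted p = 0.0485), beside 0.328% of all genes, and 25 had an unadjusted p under 0.05, beside 13.4% of all genes. Bst2 came next, at 1.10 with an adjusted p of 0.0628.

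Between cultures with and without Y-linked transcripts, where heterozygous 11 and wild-type 12 are each alone, the median of the same difference was 0.73, with 33 of 34 members above 0. By edgeR 0 members passed (0.0% of all genes, lowest adjusted p = 0.940), and 15 had an unadjusted p under 0.05, beside 3.91% of all genes. Sex, number run and culture 11 itself cannot be told apart in these sets.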

How the results depend on the processing

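With DESeq2, limma, other scalings, filters and terms, or any 1 culture left out, 0 members were called, and 3 were called in the first registered cultures alone. DESeq2 gave Cxcl10 no adjusted p, so that gene could not be called there. No paired analysis was possible because the culture numbers are not shared between the genotypes. Of all genes 1 was called, against 112 by DESeq2, 32 without a low-count filter, 0 by limma on log2(TPM + 0.1) or log2(TPM + 1), 0 with the effective length offset, 1450 in the first registered cultures alone and 0 to 896 when 1 culture was left out, the highest without wild-type 16. The number of members with a higher mean, 24, became 11 with the number run as a term and 8 with Y-linked expression as a term, and was 13 to 30 with 1 culture left out. The median of the members, 0.06, was -0.06 and -0.09 with these terms and -0.05 to 0.27 with 1 culture left out. Scaled by library totals, 21 members were higher (43.4% of all genes), with a median of 0.03. By either TPM scale 19 were higher (46.1% of all genes), with a median of 0.01. The length offset also gave 19 (50.1% of all genes), with a median of 0.06. Members with separate groups numbered 3, beside 7.75% of all genes that were higher and 9.97% lower. By either TPM scale or the length offset there was 1 (Cxcl10), and Irf1 and Tapbp overlapped. In the first registered cultures alone there were 26, beside 28.4% of all genes higher and 29.6% lower. With 1 culture left out there were 3 to 22, the 22 without heterozygous 11 beside 14.7% higher and 16.9% lower. With fewer cultures more of all genes separate. The shares for the other settings are not given, so their counts cannot be read as above or below those of all genes. Depth limits Mx1, Mx2, Rsad2, Oas2 and Psmb9, with at most 35 reads in a library.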
